A study of Mus musculus with 12 samples.

Results

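The 10 genes described here encode transcription factors, most of which T cells switch on within minutes to hours of antigen receptor signalling. They are 3 Fos genes (Fos, Fosb and Fosl2), 3 Jun genes (Jun, Junb and Jund), Atf3, 2 Egr genes (Egr1 and Egr2) and Nr4a1. They were taken by name from the symbols of the authors' deposited results table and joined by Ensembl identifier to the count table. All 10 were found among the 56748 genes of the count table, and all 10 passed the filter on low counts that left 15688 genes for testing. The identifiers were ENSMUSG00000021250.14 for Fos, ENSMUSG00000003545.4 for Fosb, ENSMUSG00000029135.11 for Fosl2, ENSMUSG00000052684.5 for Jun and ENSMUSG00000052837.8 for Junb. Those of the others were ENSMUSG00000071076.9 for Jund, ENSMUSG00000026628.14 for Atf3, ENSMUSG00000038418.8 for Egr1, ENSMUSG00000037868.16 for Egr2 and ENSMUSG00000023034.8 for Nr4a1.

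The study measured RNA from mouse CD8+ T cells expanded in culture with or without dichloroacetate (DCA), which blocks the pyruvate dehydrogenase kinases and so favours the entry of pyruvate into mitochondria. Spleens of 6 mice, 3 in each of 2 experiments, were stimulated for 24 h with peptide. The cells were expanded for 6 days in medium with serum and 50 ug/mL IL-2, with 5 mM DCA or without it, and sorted for CD8 on day 7. Each mouse gave cells to both arms, so that there were 4 groups of 3 libraries. All 12 libraries came from mice with a transgenic T cell receptor. The strain tag of experiment 1 was OT-1, genotype C57BL/6-Tg(TcraTcrb)1100Mjb/J, whose peptide was 250 nM SIINFEKL, although the sample titles of experiment 1 say Pmel-1. That of experiment 2 was Pmel-1, with the transgene Tg(TcraTcrb)8Rest on a B6.Cg-Thy1a/Cy background, whose peptide was 1 uM gp100. The age and sex of the mice were not given in the sources used here. The labels name 2 technical batches, and strain, peptide, batch and experiment coincide, so that these cannot be told apart. The receptor genes sided with the strain tags. The OT-1 segment Trbv12-1 was at 169 to 214 CPM (counts relative to library size, which for receptor and marker genes is the plain total) in experiment 1 and at 0.0688 to 0.550 CPM in experiment 2, whereas Trbv14 was at 0 in experiment 1 and at 1966 to 2876 CPM in experiment 2.

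Fos and Jun proteins pair with each other through leucine zippers and bind DNA as the dimer AP-1. Fos, Fosb, Jun and Egr1 are classic immediate-early genes, whose transcription starts without new protein synthesis when the kinases ERK, JNK and p38 phosphorylate factors already bound at their promoters. Jund and Fosl2 are AP-1 subunits with longer-lived expression, Junb partners BATF in activated T cells, and Atf3 is a stress-induced relative of CREB that can pair with Jun. Egr1 and Egr2 are zinc-finger factors below the ERK pathway. Nr4a1 encodes Nur77, an orphan nuclear receptor widely used as a reporter of antigen receptor signalling.

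The start regions of some of these genes hold letters that stimulus-driven factors can read. Windows of 250 bases before the annotated start, from RefSeq on GRCm38.p6, were found for 9 of the 10 genes, all but Egr1. Those of 4 genes are printed here, chosen by direction: 3 (Fos, Junb and Nr4a1) were higher in experiment 2 than in experiment 1 and 1 (Fosl2) was lower. Jun, also higher in experiment 2, is not printed, and its window held none of the letters marked below. A relation between the marked letters and the difference between experiments was not tested, and 4 windows chosen this way cannot show one. Capitals mark the core letters of the cyclic AMP response element, printed as TGACG, or as CGTCA where TGACG lies on the other strand. The Fos window lies at chr12:85473640-85473889 on the plus strand, the Junb window at chr8:84978749-84978998 on the minus strand, the Nr4a1 window at chr15:101266596-101266845 on the plus strand and the Fosl2 window at chr5:32136222-32136471 on the plus strand. Each is written 5′ to 3′ and ends at the base before the start.
Fos: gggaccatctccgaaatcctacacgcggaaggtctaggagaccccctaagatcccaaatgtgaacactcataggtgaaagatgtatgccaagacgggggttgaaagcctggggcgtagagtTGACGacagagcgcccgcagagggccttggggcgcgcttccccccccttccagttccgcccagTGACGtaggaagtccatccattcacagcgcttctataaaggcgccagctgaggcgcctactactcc
Junb: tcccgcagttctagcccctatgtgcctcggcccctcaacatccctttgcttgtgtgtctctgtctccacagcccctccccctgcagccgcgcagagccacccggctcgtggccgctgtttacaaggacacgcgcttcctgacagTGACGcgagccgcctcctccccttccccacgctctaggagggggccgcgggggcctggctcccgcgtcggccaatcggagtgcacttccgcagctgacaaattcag
Nr4a1: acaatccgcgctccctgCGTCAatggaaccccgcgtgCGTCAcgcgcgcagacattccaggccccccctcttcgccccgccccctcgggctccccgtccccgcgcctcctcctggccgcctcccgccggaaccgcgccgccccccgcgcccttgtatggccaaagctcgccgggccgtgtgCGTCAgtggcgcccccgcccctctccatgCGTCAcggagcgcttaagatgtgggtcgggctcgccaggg
Fosl2: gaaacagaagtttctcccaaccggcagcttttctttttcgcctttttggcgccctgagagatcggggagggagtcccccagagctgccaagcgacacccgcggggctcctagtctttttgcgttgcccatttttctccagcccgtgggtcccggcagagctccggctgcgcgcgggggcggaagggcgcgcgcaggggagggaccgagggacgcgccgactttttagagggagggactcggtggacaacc
The Fos window held these core letters 2 times, 129 and 66 bases before the start, and the letters TATAAA 33 bases before it. The Junb window held them once, 106 bases before the start, and the Nr4a1 window 4 times, the nearest 40 bases before the start. They were absent from the Fosl2, Jun and Jund windows and present in those of Fosb, Atf3 and Egr2 (3 of its 5 annotated starts). Of 32851 mouse windows of the same length, 17.8% held them on either strand. The full element TGACGTCA, which contains the core letters, stood in 1.55% of windows and in none of those of the 9 genes. The AP-1 letters TGANTCA stood in 6.75% of windows and also in none of them. The Egr letters GCGNGGGCG stood in 4.7% of windows, among them those of Fosb, Fosl2 and Nr4a1. The CArG letters CCWWWWWWGG, where W is A or T, stood in 1.47% of windows and, among the 9 genes, only in windows of Egr2. These matches describe letters, not bound sites.

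Total counts per library ran from 28039699 to 41051066. Libraries of experiment 1 had 18382 to 19551 genes with a count and 1.01% to 1.58% of counts from mitochondrial genes, against 23635 to 26571 genes and 2.11% to 2.85% in experiment 2. Cd8a stood at 274 to 738 CPM. The 6 B cell markers summed to at most 0.455 CPM, the 6 dendritic cell markers to at most 1.62 CPM and the 3 erythroid markers to at most 0.826 CPM. The 4 CD4 T cell markers summed to 5.01 to 10 CPM, mostly Zbtb7b, with Cd4 at up to 0.638 CPM. The highest sum among markers of other cells was that of the 4 stromal and endothelial genes, at 12 to 20.7 CPM in experiment 1 and 45.8 to 54.6 CPM in experiment 2. Nearly all of it was Pecam1, an adhesion molecule that leukocytes also carry, which was higher in experiment 2 (log2 difference 1.44 in untreated cells, edgeR adjusted p = 3.89e-06). The 4 NK markers summed to 5.01 to 11.7 CPM in experiment 1 and 0.116 to 1.38 CPM in experiment 2, nearly all of it Klrb1c. The 8 myeloid markers summed to 7.91 to 30.5 CPM over the 12 libraries, mostly Cd68, with Cd14 at up to 3.15 CPM. The other 6 (Lyz2, Csf1r, Adgre1, Itgam, S100a8 and S100a9) reached at most 0.447 CPM, and S100a9 was at 0 in all 12.

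Per kilobase of transcript, Jund and Junb were the most abundant members in experiment 1 and Junb alone led in experiment 2. In untreated cells of experiment 1 the mean levels were 36.6 CPM per kb for Jund, 16.8 for Junb and 3.96 for Jun. Atf3 and Fosl2 followed at 2.14 and 2.01 CPM per kb with overlapping ranges, then Egr1 at 0.401. Nr4a1, Fos, Egr2 and Fosb were all below 0.2 CPM per kb, and each of these overlapped the next in the order. In untreated cells of experiment 2 Junb stood at 138 CPM per kb. Egr1 at 28.6 and Jund at 27.2 CPM per kb overlapped, and Jun followed at 10.5. Atf3 at 4.89 CPM per kb overlapped Fos at 3.11, Fosl2 followed at 1.30 and Nr4a1 at 0.646, and Egr2 and Fosb came last at 0.161 and 0.152 with overlapping ranges. Egr1, Fos and Junb thus stood higher in the order in experiment 2, and Jund, Fosl2, Jun, Atf3 and Nr4a1 lower. Of these, Jun, Atf3 and Nr4a1 stood lower in the order although their mean levels were higher in experiment 2. With DCA the order in experiment 1 was the same down to Nr4a1, and in experiment 2 the mean of Jund (25.7 CPM per kb) lay above that of Egr1 (11.2).

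**Figure D1:**
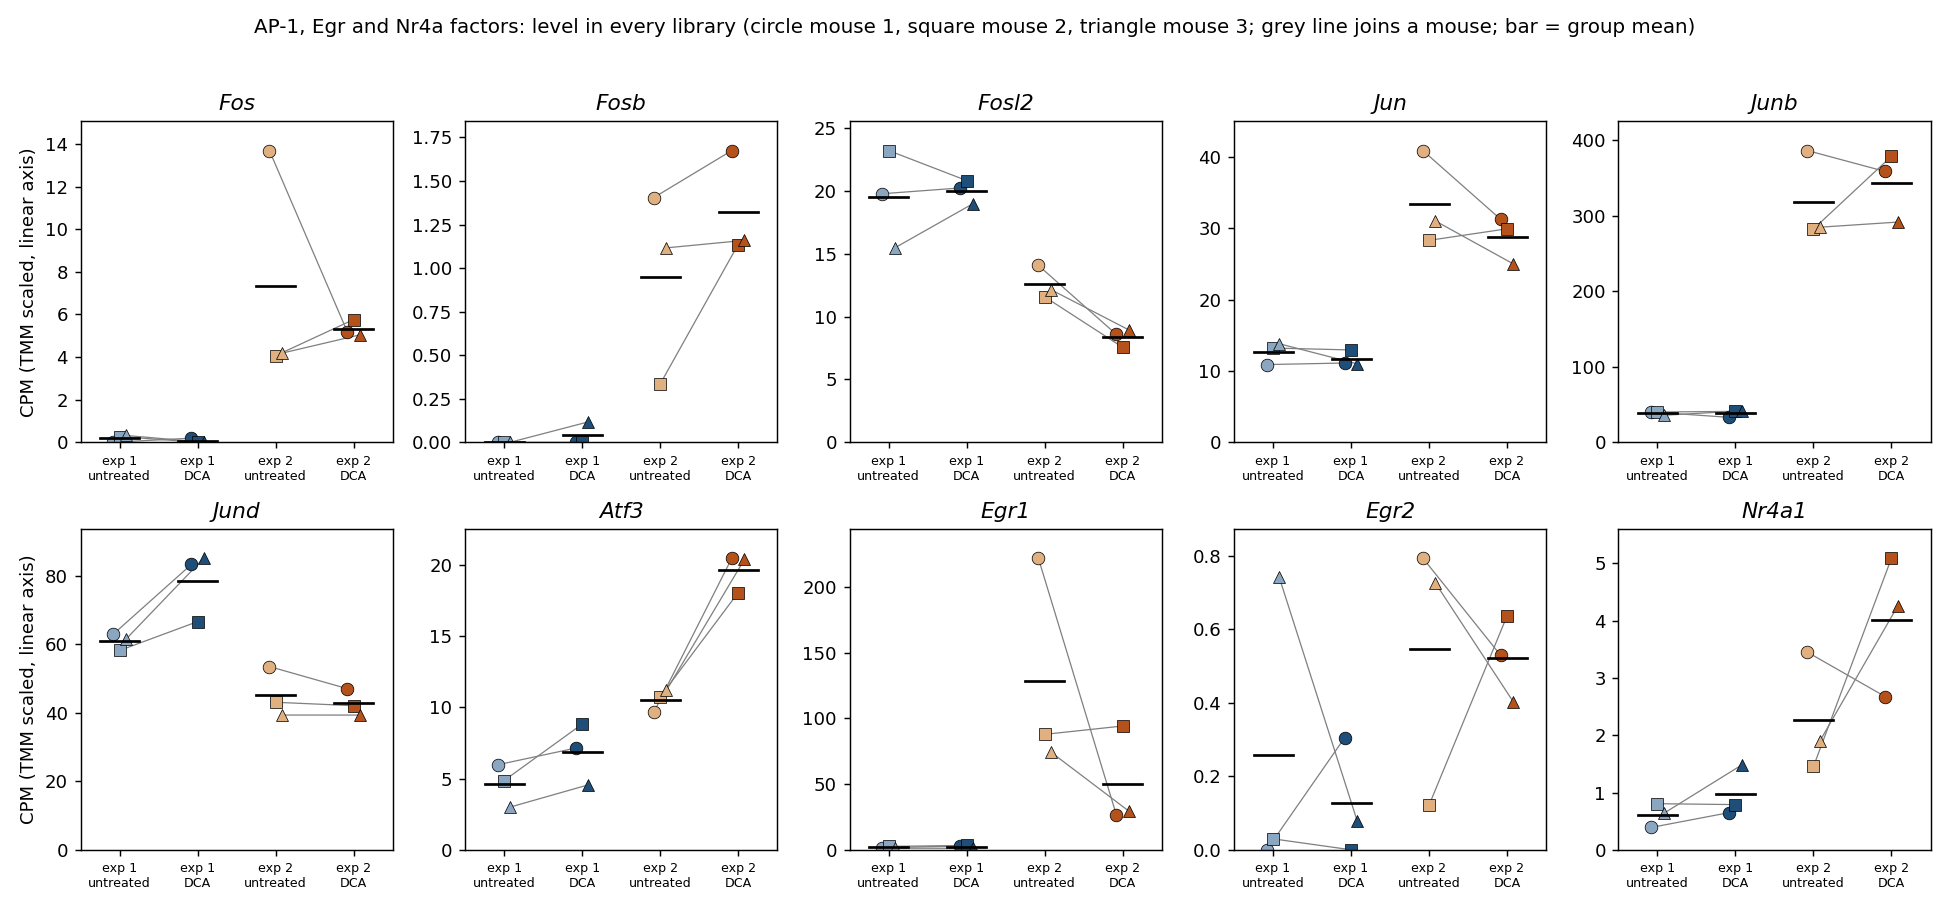
Level of each of the 10 genes in every library, in TMM-scaled CPM on a linear axis that differs between panels; circles, squares and triangles are mice 1, 2 and 3, grey lines join the arms of a mouse and black bars are group means. Fos, Fosb, Jun, Junb, Atf3 and Egr1 lie higher in all 6 libraries of experiment 2 than in all 6 of experiment 1, Fosl2 and Jund lie lower, and Atf3 is the gene whose 6 lines all slope upward with DCA.

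DCA was followed by a higher level of 1 of the 10 factors over both experiments, Atf3, and by no called change of the other 9. In all, 16.8% of the 15688 genes tested were called at an adjusted p under 0.05 in this comparison (7.01% higher and 9.8% lower), so 1 of 10 is not above the background. The median log2 fold change of the 10 was -0.06, beside -0.02 for all genes tested. Values here are from edgeR's quasi-likelihood test with a term for experiment, and p-values are adjusted by Benjamini-Hochberg over all 15688 genes.

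Atf3, the stress-induced partner of Jun, stood in untreated cells of experiment 1 at 5.97, 4.86 and 3.00 CPM in mice 1, 2 and 3, and with DCA at 7.14, 8.82 and 4.56 CPM. In experiment 2 it stood at 9.65, 10.7 and 11.2 CPM untreated and at 20.5, 18.1 and 20.4 CPM with DCA. Every mouse was higher with DCA, the groups of experiment 1 overlapped and those of experiment 2 did not. Atf3 was 1.67-fold higher over both experiments (log2 fold change 0.74, SE 0.18, edgeR adjusted p = 0.0104). It was higher in 6 of 6 mice, as were 8.31% of all genes tested. The authors' deposited table, from the same libraries, gives Atf3 a log2 fold change of 0.75 with a false discovery rate of 0.0193. Atf3 is the one member below 0.05 there. That table held 1588 calls among 15067 genes, so 1 of 10 is not above the background there either. With a term per mouse the adjusted p was 0.00678, and without the experiment term the call was lost (adjusted p = 0.604). Within the experiments the log2 fold change was 0.57 (SE 0.26, adjusted p = 0.147) in experiment 1 and 0.90 (SE 0.25, adjusted p = 0.0513) in experiment 2. A term per mouse took the experiment 2 value to an adjusted p of 0.0229. The myeloid markers ran from 7.91 to 10.9 CPM untreated and 11 to 30.5 CPM with DCA in experiment 1, and from 8.01 to 16.9 CPM untreated and 16.5 to 19.6 CPM with DCA in experiment 2. Lyz2, Csf1r, Adgre1 and S100a8 were at 0 in all 6 libraries of experiment 1. In experiment 2 Itgam was at 0 untreated and at 0.0344 to 0.26 CPM with DCA. Lyz2 there was at 0 untreated and at up to 0.447 CPM with DCA, and Cd14 at 0 to 0.507 and 0.585 to 2.37 CPM. Csf1r, Adgre1 and S100a8 reached at most 0.065 CPM in either arm of experiment 2, with overlapping ranges. Other library properties also moved with DCA. The mitochondrial share in experiment 1 was 1.01% to 1.14% untreated and 1.32% to 1.58% with DCA, and in experiment 2 it overlapped, at 2.27% to 2.85% and 2.11% to 2.40%. Genes detected in experiment 2 were 24831 to 26571 untreated and 23635 to 24326 with DCA, and in experiment 1 they overlapped. The 8 CD8 T cell markers summed to 7255 to 7942 CPM untreated and 6312 to 6596 CPM with DCA in experiment 2, and overlapped in experiment 1. The part of these and of the myeloid marker RNA in the Atf3 result was not tested.

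Of the Fos genes, Fosl2 showed the narrowest error. It was at 19.8, 23.2 and 15.5 CPM untreated and 20.2, 20.8 and 19.0 CPM with DCA in experiment 1. The levels in experiment 2 were 14.1, 11.6 and 12.2 CPM untreated and 8.58, 7.56 and 8.94 CPM with DCA. The arms overlapped in experiment 1 and did not in experiment 2, where all 3 mice were lower with DCA. In experiment 2, 30.2% of all genes had arms that did not overlap. The log2 fold change of Fosl2 was -0.27 (SE 0.14, adjusted p = 0.204) over both experiments, 0.04 (SE 0.16, adjusted p = 0.913) in experiment 1 and -0.59 (SE 0.16, adjusted p = 0.0521) in experiment 2. The experiment 2 value passed the threshold under 7 of 21 alternative settings, with adjusted p from 0.00530 to 0.143 over the 21, and was at 0.0643 with a term per mouse.

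Fos itself was nearly silent in experiment 1. Its raw counts there were 0, 9 and 9 untreated and 5, 0 and 0 with DCA. In experiment 2 it stood at 13.7, 4.06 and 4.18 CPM untreated and at 5.17, 5.76 and 5.04 CPM with DCA. Untreated mouse 1 stood far above the other 5 libraries of experiment 2, and without it the experiment 2 difference changed sign, from -0.46 to 0.31 on the log2 scale. Over both experiments the log2 fold change of Fos was -0.69 (SE 0.52, 95% interval -1.80 to 0.42, adjusted p = 0.414). Fosb, a close relative of Fos, had 3 counts in all in experiment 1 and between 11 and 57 counts per library in experiment 2. Its log2 fold change with DCA in experiment 2 was 0.47 (SE 0.76, adjusted p = 0.824). At these counts only large changes with DCA could have been called for Fosb in either experiment, or for Fos in experiment 1. The 95% interval of the log2 fold change was -1.17 to 2.11 for Fosb in experiment 2. For Fos in experiment 1 it was -4.09 to 0.84. In experiment 2 Fos had 134 to 448 counts per library, and untreated mouse 1 held the 448.

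No Jun gene was called with DCA over both experiments. Junb was at 40.1, 40.0 and 35.7 CPM untreated and 33.0, 40.9 and 41.5 CPM with DCA in experiment 1, and in experiment 2 at 386, 283 and 285 CPM untreated and 359, 379 and 292 CPM with DCA. The arms overlapped in both experiments. The log2 fold change of Junb over both was 0.05 (SE 0.09, 95% interval -0.15 to 0.25, adjusted p = 0.763). Jun was at 10.9 to 13.8 CPM untreated and 11 to 12.9 CPM with DCA in experiment 1, and at 28.3 to 40.9 CPM and 25 to 31.2 CPM in experiment 2. Its log2 fold change was -0.17 (SE 0.11, 95% interval -0.40 to 0.07, adjusted p = 0.344).

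Jund, the most steadily expressed Jun gene, was at 63.1, 58.3 and 61.5 CPM untreated and 83.4, 66.7 and 85.3 CPM with DCA in experiment 1. Its levels in experiment 2 were 53.6, 43.1 and 39.4 CPM untreated and 47.1, 42.1 and 39.4 CPM with DCA. It was higher with DCA in all 3 mice of experiment 1, where the arms did not overlap, as was so of 29.3% of all genes. The log2 fold change there was 0.36 (SE 0.13, adjusted p = 0.0643). It passed the threshold under 11 of 21 alternative settings (adjusted p from 0.0149 to 0.181), the term per mouse among them (0.0353). In experiment 2 the log2 fold change was -0.08 (SE 0.13, adjusted p = 0.816), and over both experiments it was 0.14 (SE 0.11, adjusted p = 0.412).

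Egr1, a zinc-finger immediate-early factor, was low in experiment 1, at 1.60, 2.56 and 1.24 CPM untreated and 2.86, 3.30 and 1.09 CPM with DCA. In experiment 2 it was at 222, 87.9 and 74.4 CPM untreated and at 26.7, 94.3 and 29.5 CPM with DCA. It was lower with DCA in mice 1 and 3 of experiment 2 and not in mouse 2, and the arms overlapped. The log2 fold change in experiment 2 was -1.35 (SE 0.48, adjusted p = 0.136). Without the DCA library of mouse 2 it was -2.22 with an adjusted p of 0.0274, and limma-voom called it on all libraries (-1.42, adjusted p = 0.0457). Over both experiments the value was -0.73 (SE 0.45, adjusted p = 0.298), and limma-voom again called it (-1.31, adjusted p = 0.0306). Leaving out 1 library moved the value over both experiments to between -1.05 and -0.25, the latter without untreated mouse 1 of experiment 2, and without that library the experiment 2 value was -0.75. Egr2, which restrains T cell activation and supports memory cells, had 32 counts in the 6 libraries of experiment 1 and 115 in those of experiment 2. All 12 libraries were between 0 and 0.794 CPM, and the log2 fold change with DCA was -0.47 (SE 0.85, adjusted p = 0.774).

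Nr4a1, which encodes Nur77, was at 0.390, 0.805 and 0.636 CPM untreated and 0.649, 0.789 and 1.48 CPM with DCA in experiment 1. The cells of experiment 2 held 3.45, 1.46 and 1.90 CPM untreated and 2.67, 5.09 and 4.26 CPM with DCA. It was higher with DCA in 4 of 6 mice, and the arms overlapped in both experiments. Its log2 fold change of 0.75 was as large as that of Atf3, but its SE was 0.31 and the adjusted p 0.111.

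Within experiment 1, edgeR called 0 of the 10 genes, where 16.7% of all genes were called. At an unadjusted p under 0.05 there were 2 of 10, beside 30% of all genes, and DESeq2 called 1 and limma-voom 0. Within experiment 2, edgeR again called 0 of 10, where 4.57% of all genes were called. At an unadjusted p under 0.05 there were 3 of 10, beside 18.3% of all genes, and DESeq2 and limma-voom called 2 each. The counts from DESeq2 and limma-voom in either experiment have no share of all genes beside them here and are not results about the members.

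The DCA effect was not shown to differ between the experiments for any of the 10 factors. The test of the difference itself called 0 of 10 in edgeR, DESeq2 and limma-voom alike, and edgeR called 0.331% of all genes. The edgeR fit with no filter on low counts called 1, Egr1 (-1.76, adjusted p = 2.57e-12). At an unadjusted p under 0.05 edgeR had 3 of 10, beside 14.2% of all genes. These were Fosl2 (experiment 2 minus experiment 1, -0.63 on the log2 scale, SE 0.23, adjusted p = 0.211), Jund (-0.45, SE 0.18, adjusted p = 0.270) and Egr1 (-1.77, SE 0.82, adjusted p = 0.349). The Atf3 effects differed by 0.33 (SE 0.35, 95% interval -0.43 to 1.08).

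**Figure D2:**
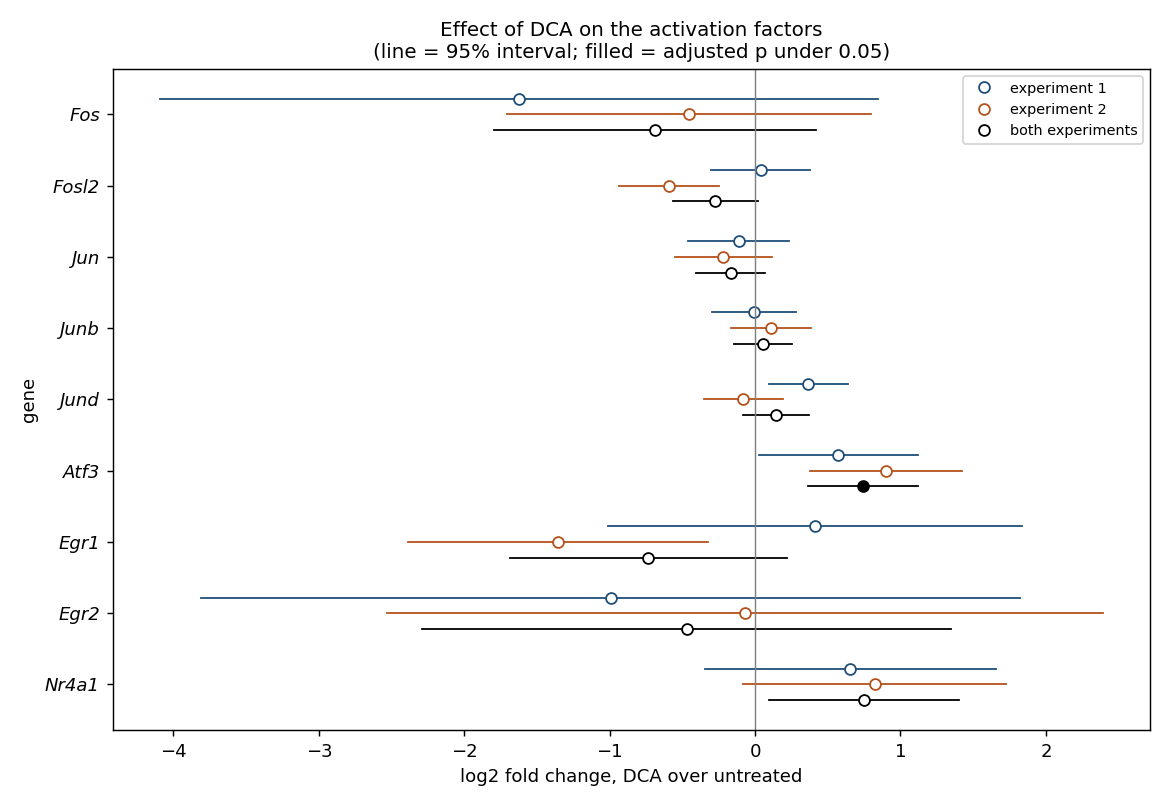
Log2 fold change of DCA over untreated for 9 of the genes, in experiment 1 (blue), experiment 2 (orange) and over both (black); lines are 95% intervals and a filled point has an adjusted p under 0.05. Fosb is left out because experiment 1 held 3 counts of it. The filled point is Atf3 over both experiments, and the lines of Fos, Egr1 and Egr2 are the widest.

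The contrast between experiments was far larger than that of DCA. In untreated cells, 7 of the 10 factors were higher in experiment 2 than in experiment 1 and 2 were lower. Over all genes tested 51.8% were called in this comparison, 26.7% higher and 25.2% lower. The median log2 difference of the 10 was 1.64, beside 0.11 for all genes tested. In the DCA arm the same 7 were higher and the same 2 lower, where 52.3% of all genes were called (28.1% higher and 24.1% lower), and the median of the 10 was 2.02 beside 0.11. The 2 arms come from the same mice and do not count as separate evidence. For 8 of the 10 the 6 libraries of one experiment did not overlap the 6 of the other, as for 40% of all genes. An absolute log2 difference of at least 3 in untreated cells was reached by 5.02% of all genes, and by Fos, Junb and Egr1 among those with counts in both groups. Genes detected, the mitochondrial share and the NK and Pecam1 levels moved with the experiments as given above, and their part in these differences was not tested.

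Junb had the smallest error for the size of its difference. Its libraries ran from 33.0 to 41.5 CPM in experiment 1 and from 283 to 386 CPM in experiment 2, with no overlap. The log2 difference was 3.04 (SE 0.14, adjusted p = 2.49e-10) in untreated cells and 3.16 (SE 0.14, adjusted p = 1.81e-10) with DCA. Jun ran from 10.9 to 13.8 CPM and from 25 to 40.9 CPM, a log2 difference of 1.40 (SE 0.16, adjusted p = 3.16e-06) untreated and 1.30 (SE 0.16, adjusted p = 7.56e-06) with DCA. Jund went the other way. It ran from 58.3 to 85.3 CPM in experiment 1 and from 39.4 to 53.6 CPM in experiment 2, a log2 difference of -0.43 (SE 0.13, adjusted p = 0.0113) untreated and -0.87 (SE 0.13, adjusted p = 4.06e-05) with DCA. The untreated call of Jund was lost when CPM was scaled by library totals alone (-0.00043 on the log2 scale, adjusted p = 0.998), under cyclic loess (-0.28, adjusted p = 0.0812), and without untreated mouse 2 (-0.33, adjusted p = 0.0822) or 3 (-0.26, adjusted p = 0.129) of experiment 2.

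Fos ran from 0 to 0.318 CPM in the 6 libraries of experiment 1, with 23 counts in all, and from 4.06 to 13.7 CPM in experiment 2, with 1327 counts. The log2 difference was 5.15 (SE 0.77, adjusted p = 5.00e-05) untreated and 6.32 (SE 0.91, adjusted p = 3.36e-05) with DCA. The DCA value rests on 5 counts in 1 of the 3 libraries of experiment 1. Without that library, mouse 1, the group had no count and the fitted value was 10.4, which then depends on the prior count. Fosb had no count in the 3 untreated libraries of experiment 1, which allows up to 3 counts over the group as a 1-sided 95% limit. Against that limit its mean of 0.952 CPM in untreated cells of experiment 2 was 27.8-fold higher. That ratio takes the mean without its own error, and its libraries ran from 0.3335 to 1.405 CPM. With DCA there were 144 counts in experiment 2 against 3 in experiment 1, a ratio of 34.8 (95% counting interval 11.7 to 171). Both groups of Fosb libraries were separate, with edgeR adjusted p of 0.000415 untreated and 0.00125 with DCA. Fosl2, the longer-lived Fos protein's gene, was again on the other side. It ran from 15.5 to 23.2 CPM in experiment 1 and from 7.56 to 14.1 CPM in experiment 2, a log2 difference of -0.63 (SE 0.16, adjusted p = 0.00404) untreated and -1.26 (SE 0.16, adjusted p = 1.16e-05) with DCA. Scaled by library totals alone, the untreated value of Fosl2 was -0.20 (adjusted p = 0.296).

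Egr1 ran from 1.09 to 3.30 CPM in experiment 1 and from 26.7 to 222 CPM in experiment 2. The log2 difference of Egr1 was 6.13 (SE 0.63, adjusted p = 1.03e-06) untreated and 4.36 (SE 0.59, adjusted p = 1.89e-05) with DCA. Atf3 ran from 3.00 to 8.82 CPM and from 9.65 to 20.5 CPM, a log2 difference of 1.19 (SE 0.25, adjusted p = 0.00110) untreated and 1.52 (SE 0.25, adjusted p = 0.000128) with DCA. Nr4a1 ran from 0.390 to 1.48 CPM and from 1.46 to 5.09 CPM, which overlap by 1 library on each side, with a log2 difference of 1.87 (SE 0.46, adjusted p = 0.00314) untreated and 2.04 (SE 0.45, adjusted p = 0.00143) with DCA. Egr2 did not pass in either arm, at 1.09 (SE 1.20, adjusted p = 0.475) and 2.01 (SE 1.29, adjusted p = 0.209). Without untreated mouse 3 of experiment 1, which held the highest Egr2 value of its group at 0.742 CPM, the untreated value was 4.76 with an adjusted p of 0.0201.

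**Figure D3:**
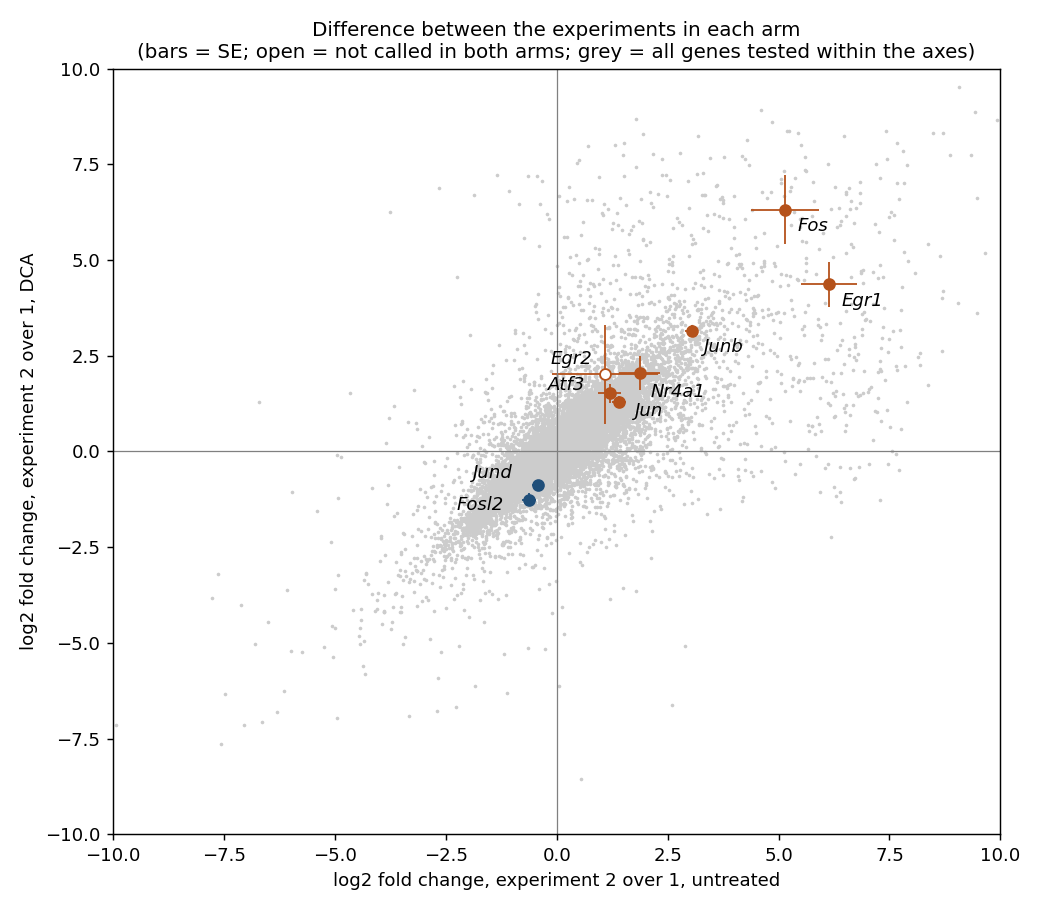
Log2 difference between experiment 2 and experiment 1 in untreated cells (horizontal axis) and with DCA (vertical axis) for 9 of the genes, with SE bars, over all genes tested in grey; Fosb is left out because it had no count in 1 group, and the open point is not called. Fos, Egr1 and Junb lie in the upper right, Jun, Atf3 and Nr4a1 nearer the centre, and Jund and Fosl2 in the lower left.

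The make-up of the Jun and Fos transcripts differed between the experiments. Taken per kilobase, Jund made up 63.8% ± 1.69 (SD, n = 3) of the 3 Jun transcripts in untreated cells of experiment 1 and 15.5% ± 0.785 in experiment 2. Junb went from 29.3% ± 1.77 to 78.5% ± 0.514, and Jun stayed between 4.71% and 7.63% in all 12 libraries. With DCA the share of Jund was 69.6% ± 4.57 in experiment 1 and 14.1% ± 1.21 in experiment 2. Of the 3 Fos transcripts, Fosl2 made up 95.9% ± 3.92 in untreated cells of experiment 1 and 32.9% ± 11.7 in experiment 2, while Fos went from 4.11% ± 3.92 to 63.7% ± 12.1. The shares of Jund, Junb, Fos and Fosl2 did not overlap between the experiments in either arm. With 3 against 3 libraries the smallest exact two-sided permutation p is 0.10.

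**Figure D4:**
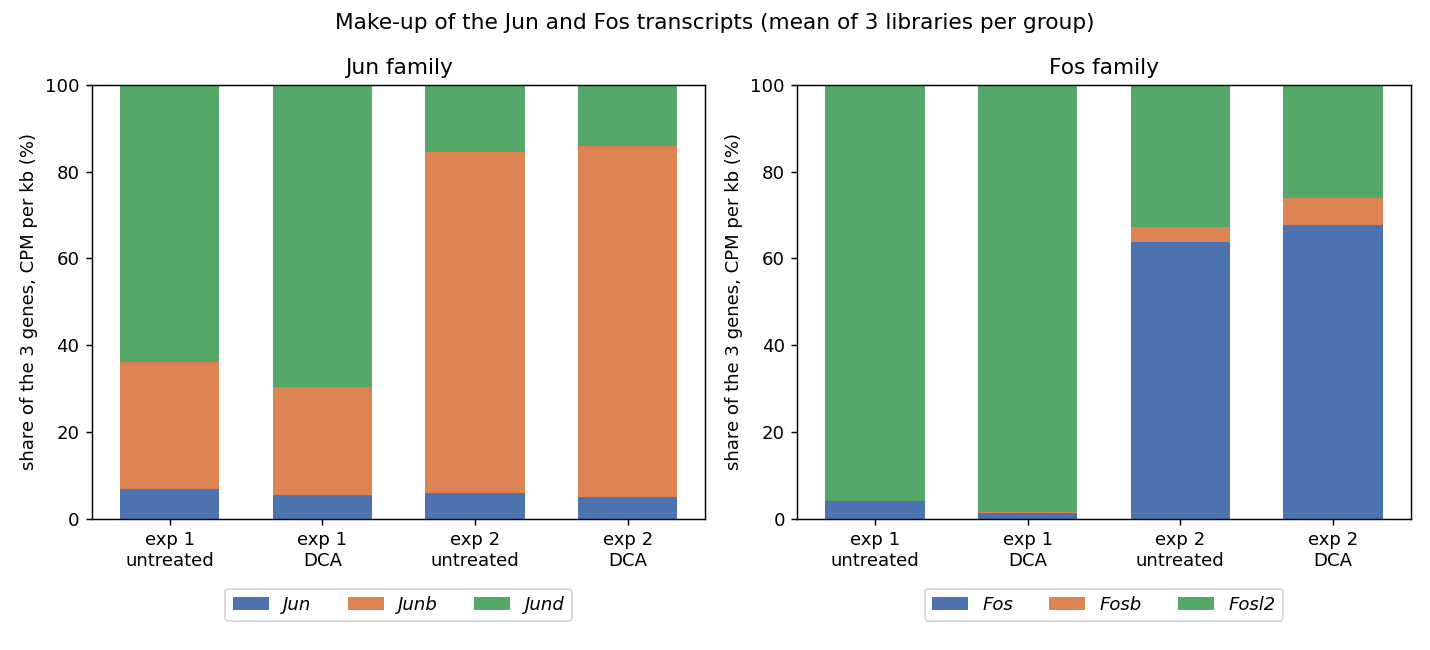
Share of each gene in the summed CPM per kb of the 3 Jun genes (left) and of the 3 Fos genes (right), as the mean of 3 libraries per group. Jund and Fosl2 form most of the bars of experiment 1, and Junb and Fos most of those of experiment 2.

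The counts in the gene lists below stand beside the shares of all genes given above, from the TMM fit. With DCA these were 7.01% higher and 9.8% lower. In untreated cells of experiment 2 they were 26.7% higher and 25.2% lower. Under library totals alone the median log2 difference of all genes in untreated cells was 0.533, and under cyclic loess -0.0195. For DCA over both experiments those medians were 0.0839 and -0.0262. Splits of the lists under these scalings have no share of all genes beside them here, and a split can follow the shift of all genes. They show how far the counts depend on the scaling and are not results about the lists. Of 17 other AP-1, Egr and Nr4a family genes, 15 were tested. With DCA over both experiments 1 was higher and 0 lower. It was Batf3, an AP-1 factor needed for dendritic cell development and for T cell memory, at 152 ± 29.3 and 196 ± 30.6 CPM in experiment 1 (untreated and DCA; SD, n = 3) and 62.4 ± 5.70 and 123 ± 17.5 CPM in experiment 2. Its log2 fold change was 0.67 (SE 0.13, adjusted p = 0.00324). The median of the family was -0.03, beside -0.02 for all genes. In untreated cells 0 of the 15 were higher in experiment 2 and 4 were lower. These were Batf3 (-1.29), the Egr corepressor Nab1 (-1.27), Nr4a3 (-2.70), a close relative of Nr4a1, and Batf (-0.35), the partner of Junb. The median was -0.35, beside 0.11 for all genes. The call of Batf held in 5 of 12 fits that left out 1 library, and its value was 0.07 when scaled by library totals alone. That scaling gave 3 higher and 3 lower, and cyclic loess 0 higher and 6 lower.

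Genes of the signalling steps above the factors (ERK, JNK, p38, calcineurin, SRF and CREB) were called in both directions. With DCA 2 of 25 were higher and 1 lower, a median of -0.0042 beside -0.02 for all genes. Crem, a CREB relative, was higher by 0.32 (adjusted p = 0.0131). The calcineurin subunit Ppp3ca was higher by 0.31 (adjusted p = 0.0297) and protein kinase C theta, Prkcq, lower by 0.24 (log2 fold change -0.24, adjusted p = 0.0220). With a term per mouse Ppp3ca was at an adjusted p of 0.0674 and Prkcq at 0.0546, and they held their calls in 7 and 9 of 12 fits that left out 1 library. Library totals alone and cyclic loess each gave 4 higher and 0 lower with DCA. Between untreated cells 9 were higher in experiment 2 and 7 lower, a median of 0.11 beside 0.11 for all genes. Higher were the CREB coactivator Crtc2 (1.81), the ERK kinases Map2k2 (1.25) and Map2k1 (0.65), and Prkcq (0.66). Lower were Ppp3cb (-0.71), Crem (-0.87), Creb1 (-0.55) and the JNK kinase Map2k7 (-0.79). Under library totals alone the split was 14 higher and 2 lower, and under cyclic loess 9 and 6.

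Other immediate-early and feedback genes were mostly higher in experiment 2. In untreated cells 17 of 30 were higher and 2 lower, with a median log2 difference of 0.73 beside 0.11 for all genes. The highest-ranked were Klf6 (0.98), Zfp36 (2.95), which encodes the mRNA decay factor tristetraprolin, Myc (1.08) and Ier2 (2.26). The 2 lower were Spry2 (-2.53), a brake on ERK, and Zfp36l2 (-0.41), whose call held in 4 of 12 fits that left out 1 library and whose value was 0.01 under library totals. The split was 20 and 1 under library totals and 16 and 5 under cyclic loess. With DCA 3 of the 30 were higher and 2 lower, a share close to the 16.8% of all genes called, with a median of 0.16 beside -0.02. Btg1, which slows cell division, was higher by 0.53 (adjusted p = 0.00722), Spry2 by 0.86 (adjusted p = 0.0196) and Gadd45b by 0.44 (adjusted p = 0.0380). The ERK phosphatases Dusp2 (-0.40, adjusted p = 0.0393) and Dusp6 (-0.33, adjusted p = 0.0494) were lower, and each held its call in 2 of 12 fits that left out 1 library. Dusp2 was at an adjusted p of 0.0634 with a term per mouse. Gadd45b held its call in 4 of those 12 fits. Library totals alone gave 6 higher and 0 lower, and cyclic loess 1 and 1.

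Genes induced through the antigen receptor over hours to days were also called mostly in the higher direction. In untreated cells 11 of 22 tested were higher in experiment 2 and 1 lower, with a median of 0.63 beside 0.11. The checkpoint receptors Lag3 (2.76) and Ctla4 (1.48), the factor Irf8 (1.18) and the cytokine Tnf (1.40) were higher, and Bcl6 (-2.62, adjusted p = 0.0472), a repressor in memory precursors, lower. Bcl6 was low, at a mean of 0.914 CPM (SD 0.903) in untreated cells of experiment 1 and 0.145 CPM in those of experiment 2. It held its call in 6 of 12 fits that left out 1 library and lost it in limma-voom. Library totals alone gave 17 higher and 0 lower and cyclic loess 11 and 2. With DCA 4 were higher and 3 lower, with a median of 0.15 beside -0.02. Ikzf2, which encodes Helios, was higher by 1.60, the IL-2 receptor chain Il2ra by 0.37, Crtam by 1.80 and Irf4 by 0.45, and Irf8 (-0.31), Tnfrsf9 (-0.28) and Ifng (-2.18) were lower. Crtam and Ifng were low in all groups. The means of Crtam untreated and with DCA were 0.508 and 1.65 CPM in experiment 1 and 0.632 and 2.36 CPM in experiment 2. Those of Ifng were 0.79 and 0.0956 CPM in experiment 1 and 0.83 and 0.279 CPM in experiment 2, and its call was lost in limma-voom. With a term per mouse the adjusted p was 0.0606 for Crtam, 0.0634 for Irf4, 0.0580 for Tnfrsf9 and 0.0730 for Ifng. Tnfrsf9 and Ifng each held the call in 3 of 12 fits that left out 1 library, Irf4 in 9 and Crtam in 11. Irf8 lost its call under library totals alone (adjusted p = 0.0720) and cyclic loess (0.0757), as did Tnfrsf9 (0.201 and 0.485). The split was 5 higher and 1 lower under library totals and 4 and 1 under cyclic loess.

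Of the heat shock genes, many of which rise with cell stress, 6 of 9 were tested. Hspa1a, Hspa1b and Hspb1 did not pass the filter on low counts and were not assessed. The log2 fold change of Hspe1 with DCA was -0.38 (adjusted p = 0.00671) and 0 genes were higher. In untreated cells 4 of the 6 were lower in experiment 2 and 0 higher. Of these Hspe1 (-2.29) was lower under every scaling tried, whereas Hspa8 (-0.97), Hsp90aa1 (-0.40) and Dnaja1 (-0.42) changed sign under cyclic loess, to 0.05, 0.40 and 0.17. Hsp90aa1 and Dnaja1 also did so under library totals alone (0.03 and 0.00093). Library totals alone gave 1 higher and 2 lower, and cyclic loess 2 and 1.

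The genes whose level most resembled 4 of the factors were ranked by Pearson r of log2 CPM over the 12 libraries after each experiment's mean was taken out. There were 7626 candidates, the libraries share mice and arms, and the values are a description. For Fos these were Zfp280c (0.876), Ccdc88b (0.875) and Myef2 (0.860). For Jun they included Sos1 (0.906) and Morc3 (0.842), and they were for Egr1 Ptgr2 (0.831), Nfatc3 (0.828) and Golga3 (0.815), and for Nr4a1 Rfx7 (0.861), Kank3 (0.853) and Ttll1 (0.852). Fos was at 0 in 3 of the 6 libraries of experiment 1, so that its values there rest on few counts. Among the factors with counts in all 12 libraries, by the same measure, pairs ran from -0.473 (Jun and Atf3) to 0.647 (Fosl2 and Egr1). Jun and Nr4a1 stood at 0.0099. Some pairs differed in sign between the experiments, such as Atf3 and Egr1 at 0.778 in experiment 1 and -0.808 in experiment 2.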

How the data were processed

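Per the labels' protocols, cDNA from sorted CD8+ T cells was made with a Takara SmartSeq kit over 15 cycles. Reads were handled with fastp 0.23.2 and STAR 2.7.10a on GRCm39, and edgeR 3.36.0 was used, per the submitters' processing notes. The read counter, the annotation and whether strand was used were not given in the sources used here. The authors deposited whole-number counts per gene for the 12 libraries, and a results table with log2 fold changes, log2 CPM, p-values with false discovery rates, and gene lengths (other values), which supplied symbols and lengths.

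Counts were tested with edgeR 4.0.16 (R 4.3.3): filterByExpr by the 4 groups, TMM factors, quasi-likelihood test, Benjamini-Hochberg adjustment, threshold 0.05. The comparison over both experiments used a term for experiment, and the others a mean per group. CPM of the 10 genes and the gene lists are TMM-scaled, those of marker and receptor genes are per library total, and CPM per kb divides by the deposited length. DESeq2 1.42.0 and limma 3.58.1 were alternatives. The fits were tested on simulated counts. The 10 genes and the lists were chosen with earlier results of these data known. Of each other list up to 4 genes called in each direction are named, by smallest adjusted p, over both experiments and in untreated cells. For Fos, Jun, Egr1 and Nr4a1 the 3 genes of highest r are named (mean log2 CPM 3 or more), except 1 that is not reported here.

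The same mouse gave both arms, per the labels. Deviations from the group means correlated at 0.0443 to 0.0834 within a mouse and at -0.0689 to -0.00438 between mice. Replicates differed by more than sampling noise (chi-square per degree of freedom 11.7 to 32.9). Intervals on counts cover counting error only. In bulk RNA, fewer expressing cells and less RNA per cell cannot be told apart.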

Additional observations from a re-analysis of the deposited data

Results flagged for a closer look

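Jund had a DCA effect of opposite sign in every mouse of the experiments, higher in 3 of 3 mice of experiment 1 and lower in 3 of 3 mice of experiment 2. Such a pattern was found for 4.06% of all genes tested. The test of the difference (experiment 2 minus experiment 1, -0.4459 on the log2 scale) gave an adjusted p of 0.270 in edgeR, and the mouse differences of Jund in experiment 2 were small, at -0.19, -0.03 and -0.0002.

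Myc, a growth regulator on the immediate-early list, had DCA effects that differed between the experiments by 0.8766 on the log2 scale (edgeR adjusted p = 0.0107). Its mean was 347 CPM untreated and 233 CPM with DCA in experiment 1, and 734 and 904 CPM in experiment 2. Hspa8, which encodes the constitutive heat shock protein Hsc70, had effects that differed by 0.7993 (edgeR adjusted p = 0.0107), with 2394 and 1540 CPM in experiment 1 and 1222 and 1367 CPM in experiment 2. The call of Hspa8 was lost without any 1 of the 6 libraries of experiment 2, with adjusted p of 0.0998, 0.0611 and 0.0844 without untreated mouse 1, 2 and 3 and of 0.0956, 0.0920 and 0.123 without the DCA library of mouse 1, 2 and 3. The call of Myc was lost without any of those 3 libraries (adjusted p 0.0998, 0.0616 and 0.0844) and without the DCA library of mouse 2 (0.0920) or 3 (0.126) of experiment 2.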

How the results depend on the processing

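Counting all genes called and the number of the 10 members among them, the comparison of DCA over both experiments depended most on the experiment term: without it 46 genes and 0 members were called, against 2638 and 1. limma-voom and the fit with no filter called 2 members. The 21 alternatives each called between 46 and 3456 genes, and the main fit 16.8% of all genes. In experiment 1 the main fit called 2622 genes (16.7% of all) and 0 members, and the 21 alternatives each between 1251 and 3267 genes. A fit of only the 6 libraries gave 1251 genes. It called 1 member, as did library totals alone, cyclic loess, DESeq2, no filter, a filter of 5 CPM in 3 libraries and the term per mouse (replicate block), and 0 to 1 were called with 1 library left out. Counts of members under the alternatives, above and below, lack the share of all genes in the same fit. They show dependence on the setting only. In experiment 2 (717 genes, 0 members) limma-voom called 1171 genes, DESeq2 1512, no filter 1116 and only the 6 libraries 1564, with 2 members each. The filter of 5 CPM also called 2 members, and RLE size factors, library totals alone, cyclic loess and the term per mouse 1 each. All 21 alternatives called between 210 and 1564 genes, and the main fit 4.57% of all genes. With 1 library left out there were 210 (without untreated mouse 2) to 824 genes and 0 to 2 members. The fits without DCA mouse 1 or 2 of experiment 2 gave 260 and 271 genes. The test of the difference called 52 genes, 30 under cyclic loess, 458 in DESeq2, 566 with no filter (1 member, Egr1), 24 with the term per mouse, and 1 to 217 with 1 library left out. The fit with no filter gave Egr1 far smaller adjusted p than the other fits (4.55e-22 in experiment 2). The comparisons of experiments kept between 6771 and 8917 genes in untreated cells and between 6803 and 8652 with DCA.

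No member that was called changed direction. Members that were not called did so as follows. For DCA over both experiments Egr2 was at 0.171 in limma-voom and between -0.8362 and 0.6175 with 1 library left out. In experiment 1 Junb was at 0.002849 with RLE size factors, 0.135 with library totals, 0.147 under cyclic loess, 0.002831 in DESeq2, 0.08311 with the 5 CPM filter and 0.06697 with only the 6 libraries, and between -0.06542 and 0.09181 with 1 library left out. Jun was at 0.02923 with library totals. With 1 library left out Fosl2 ran from -0.106 to 0.1836, Egr2 from -2.641 to 2.681 and Fosb from 0 to 3.991. In experiment 2 Egr2 was at 0.06764 under cyclic loess, 0.2406 in limma-voom and 0.1598 with the term per mouse. With 1 library left out Egr2 ran from -0.5709 to 0.2407, Fos from -0.7713 to 0.3128 and Junb from -0.008086 to 0.2169. For the difference Fosb was at 0.3178 under cyclic loess, and with 1 library left out Fosb ran from -3.517 to 0.4737, Egr2 from -2.748 to 2.574, Nr4a1 from -0.1487 to 0.6014 and Junb from -0.05247 to 0.1769. The cause was not tested in any of these. The term per mouse changed no call of a member other than those given beside Atf3 and Jund. No paired analysis was possible between experiments because no mouse was in both.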
